A study of Mus musculus with 9 samples.

Results

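The 8 Hedgehog pathway genes described here, Shh, Ihh, Ptch1, Smo, Hhip, Gli1, Gli2 and Gli3, were taken by gene symbol from the 18484 genes counted in 9 mouse mammary tumours. All 8 were present, each once. The tumours arose in BlgCre-NeuKI mice on a mixed FVB/C57Bl6 background, heterozygous for both alleles. In these mice an activated rat Neu gene sits in the endogenous Erbb2 locus behind a floxed STOP cassette, and Cre, driven by the Beta-lactoglobulin promoter, removes that cassette mainly in luminal oestrogen receptor-negative mammary cells. Each tumour was snap frozen and gave 1 RNA-seq library, no treatment was given, and the ages of the animals were not given in the sources used here. The labels group the tumours by copy number of the Erbb2/Neu locus, diagnosis and reproductive history.

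The 5 high-amplified tumours were all adenocarcinomas of no special type, AC(NST): MS 1213.1, MS 1163.1 and MS 1163.2 from virgin animals, and MS 1218.2 and MS 1155.3 from parous animals, which had been through at least 1 pregnancy. The 3 not/low-amplified epithelial tumours were all from parous animals, and comprised MS 1210.1 and MS 1349.1, which were metaplastic adenosquamous carcinomas (ASQC), and MS 1166.1, an AC(NST). The paper set these amplification groups by qPCR on genomic DNA. Its droplet PCR scored MS 1218.2 and MS 1213.1 low, unlike the qPCR. Copy number from exome sequencing matched the qPCR for MS 1213.1 but not for MS 1218.2. MS 1156.1 was a mammary sarcoma from a parous animal, without high amplification. Both ASQC tumours were therefore not/low-amplified and all virgin tumours were high-amplified, so histotype, amplification and parity cannot be fully told apart. No normal mammary gland was analysed here. MS 1163.1 and MS 1163.2 share the first part of their names, and the paper speaks of MS 1163 as 1 animal. The series text, however, gives each tumour its own mouse. The main fits and the exact tests counted them as separate tumours. If they came from 1 mouse, those p-values treat tumours of 1 animal as independent.

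Hedgehog ligands are secreted proteins that bind the receptor Ptch1 and lift its block on Smo, a membrane protein that signals through the primary cilium. The Gli proteins are the transcription factors at the end of the pathway, with Gli1 acting as an activator and Gli3 largely as a repressor in the absence of ligand. Ptch1, Hhip and Gli1 are themselves induced by the pathway and are widely used as readouts of it. In the developing mammary bud the pathway is held low, whereas Shh is a well-known signal of the hair follicle, another skin appendage.

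The depth, as the total count over genes, ranged from 12501225 to 23912429. Values are given as normalised counts, the count divided by a size factor for each tumour, and levels of different genes are compared only per kb of exon. Erbb2 lay between 5284 and 105019 normalised counts in the high-amplified tumours, between 1532 and 2783 in the not/low-amplified epithelial tumours and at 1177 in the sarcoma. The summed level of the 7 fibroblast markers was highest among the epithelial tumours in MS 1218.2, at 380384 against 29692 to 115848 in the other 7, and the study's purity estimate also set this tumour apart. The 3 skeletal muscle markers in the files summed to 2267 in MS 1163.2 and to between 3.52 and 189 in the other 7. In whole-tumour RNA, fewer cells of a type and less RNA per cell cannot be told apart.

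The ligand Shh was detected in the 2 ASQC tumours and almost nowhere else. It had 59.2 normalised counts in MS 1349.1 (81 counts) and 9.85 in MS 1210.1 (14 counts). In the 6 AC(NST) tumours it had 1.24 in MS 1163.2, from 1 count, and 0 in MS 1213.1, MS 1163.1, MS 1218.2, MS 1155.3 and MS 1166.1, where 0 counts allow a level of up to 2.78 to 3.86 (3 counts per library). The groups did not overlap, and the 2 ASQC tumours themselves differed 6.01-fold (95% exact interval 3.38 to 11.5). Among the genes past the filter used for the fits, 5.3% had both ASQC tumours above all 6 AC(NST) tumours. Pooled over the tumours of each histotype, the level was 187 times higher in ASQC than in AC(NST), with a 95% exact interval of 32.8 to 7463 that covers counting error only. In an exact two-sided permutation test on log2(normalised count + 1), the histotype difference gave p = 0.0357, the smallest value that 2 against 6 tumours allow. The sarcoma had no Shh count, which allows a level of up to 4.19.

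Shh did not pass the filter of 10 counts in at least 3 epithelial tumours and so had no value in the main edgeR quasi-likelihood fit. With 10 counts required in at least 2 tumours, its log2 fold change of ASQC over AC(NST) was 6.83 (SE 1.12), and it was called, as were 1.03% of the 14517 genes tested. It entered that fit only through the 2 tumours in which it is high, so the call is no support for the difference. The difference by amplification was smaller, since MS 1166.1, the not/low-amplified AC(NST), had no Shh count: an exact permutation test gave p = 0.107 for 3 not/low-amplified against 5 high-amplified tumours. By parity the exact p was 0.554. Shh lies on chromosome 5 (GRCm38, 28456815 to 28467256, minus strand), and its exons share 446 bases with 9530036O11Rik and 361 bases with Gm26894 on the opposite strand. The alignment was run with unstranded settings and the strand setting of the counting was not given in the sources used here, so reads from these partners cannot be told apart from Shh reads.

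Squamous differentiation is part of the ASQC diagnosis, and the sum of its markers was higher in both ASQC tumours. The 4 squamous markers summed to 102 normalised counts in MS 1210.1 and 335 in MS 1349.1, against 9.26 to 23.2 in the AC(NST) tumours, where 2 of the 4 markers were at 0 in each tumour. The 5 basal and myoepithelial markers summed to 56925 in MS 1210.1 and 11126 in MS 1349.1, against 997 to 11694 in the AC(NST) tumours. MS 1349.1 therefore held more Shh and more squamous marker RNA than MS 1210.1, but had a lower basal marker sum. Single genes made up most of the largest sums, Krt14 in MS 1210.1 (51708) and Acta2 in MS 1218.2 (11087). Trp63, another of the basal markers, was highest in MS 1349.1 (1325), so the basal markers did not all go 1 way. The part of these cell types in the Shh and Gli1 values was not tested.

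The second ligand, Ihh, which is best known from cartilage and gut, had at most 5 counts in any tumour. Its normalised counts were 4.82 in MS 1213.1, 3.15 in MS 1163.1, 2.49 in MS 1163.2, 0.926 in MS 1218.2 and 0 in MS 1155.3 among the high-amplified tumours. They were 0 in MS 1210.1, 0.731 in MS 1349.1, 1.19 in MS 1166.1 and 5.58 in the sarcoma. The 3 virgin tumours lay above the 5 parous tumours (exact permutation p = 0.0179, the smallest that 3 against 5 tumours allow), at levels of 2 to 5 counts against 0 or 1. Among the genes past the filter, which Ihh did not pass, 3.89% had this order. The test counts MS 1163.1 and MS 1163.2 as independent, which they may not be. The exact p was 0.268 by amplification and 0.214 by histotype. Across the 3 comparisons, 9 such exact tests were run on Shh, Ihh and Hhip, and their p-values are not adjusted.

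Dhh, the third mammalian ligand and a product of Schwann cells and the testis, belonged to a list of 7 genes for ligand processing and release. It had 480 normalised counts in MS 1163.1, 63.1 in MS 1155.3, 31.5 in MS 1218.2, 7.70 in MS 1213.1 and 6.21 in MS 1163.2. In the not/low-amplified tumours it had 5.63 in MS 1210.1 and 0 in MS 1349.1 and MS 1166.1, and in the sarcoma it had 544. MS 1163.1 and the sarcoma thus held most of the Dhh. Every high-amplified tumour lay above every not/low-amplified one, but only narrowly, with 6.21 in MS 1163.2 against 5.63 in MS 1210.1. The share of all genes in this order was not counted. The log2 fold change of high-amplified over not/low-amplified tumours was 5.79 (SE 1.96, unadjusted p = 0.0152, adjusted p = 0.134, edgeR). MS 1163.1, with the most Dhh of the epithelial tumours, had 12.6 normalised counts of Gli1, near the middle of the high-amplified range.

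Ptch1, the principal receptor, was well covered in every tumour and showed no called difference between the epithelial groups. It had 1511 normalised counts in MS 1213.1, 1312 in MS 1163.1, 1500 in MS 1163.2, 587 in MS 1218.2 and 1228 in MS 1155.3. The not/low-amplified tumours had 1002.2 in MS 1210.1, 1153 in MS 1349.1 and 1005.1 in MS 1166.1, within the high-amplified range. MS 1218.2 was the lowest of all 9 tumours and the sarcoma, at 3419, was the highest. In edgeR's fit of all 14007 genes past the filter, the log2 fold change of high-amplified over not/low-amplified tumours was 0.24 (SE 0.32, adjusted p = 0.681), and that of ASQC over AC(NST) was −0.14 (SE 0.38, adjusted p = 0.948). All 3 virgin tumours (1312 to 1511) lay above all 5 parous tumours (587 to 1228), an order that 3.89% of the genes shared, with a parous over virgin log2 fold change of −0.54 (SE 0.27, adjusted p = 0.386).

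Smo, the signal transducer that Ptch1 restrains, was the most abundant member per kb in every tumour. It had 1719 normalised counts in MS 1213.1, 2365 in MS 1163.1, 2205 in MS 1163.2, 2393 in MS 1218.2 and 2348 in MS 1155.3. The not/low-amplified tumours spanned that range, with 3165 in MS 1166.1, 1734 in MS 1210.1 and 1194 in MS 1349.1. The 2 ASQC tumours were thus at the low end and the AC(NST) of the same amplification group at the top, with MS 1213.1 falling between the ASQC tumours. The log2 fold change of ASQC over AC(NST) was −0.69 (SE 0.32, unadjusted p = 0.0585, adjusted p = 0.591, edgeR). By amplification it was 0.14 (SE 0.32, adjusted p = 0.807) and by parity 0.04 (SE 0.32, adjusted p = 0.964). The sarcoma, at 2048, lay inside the epithelial range.

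Hhip encodes a membrane protein that binds and sequesters Hedgehog ligands and is induced by the pathway. It had at most 5 counts in any epithelial tumour: its normalised counts were 4.82 in MS 1213.1, 6.21 in MS 1163.2, 0.926 in MS 1218.2, 1.41 in MS 1210.1 and 2.19 in MS 1349.1, and 0 in MS 1163.1, MS 1155.3 and MS 1166.1. The exact permutation p was 0.821 by amplification, 0.714 by histotype and 0.286 by parity, so no difference between epithelial groups was detectable at this depth. The sarcoma stood apart, with 124 normalised counts from 89 reads.

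Of the 5 members tested by edgeR, Gli1 had the largest fold change in each of the 3 comparisons, although none was called. It had 66.5 normalised counts in MS 1349.1 and 49.9 in MS 1210.1, the ASQC tumours, and 16.7 in MS 1166.1. In the high-amplified tumours it had 7.70 in MS 1213.1, 12.6 in MS 1163.1, 9.94 in MS 1163.2, 15.7 in MS 1218.2 and 14.2 in MS 1155.3. The ASQC tumours stood well above the rest, whereas MS 1166.1, from 14 counts, lay next to MS 1218.2, from 17 counts. Pooled over tumours, the level was 4.56 times higher in ASQC than in AC(NST), with a 95% exact counting interval of 3.42 to 6.12.

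The log2 fold change of Gli1 in ASQC over AC(NST) was 2.18 (SE 0.54, unadjusted p = 0.00238, adjusted p = 0.222, edgeR), and that of high-amplified over not/low-amplified tumours was −1.87 (SE 0.57, unadjusted p = 0.00914, adjusted p = 0.112, edgeR). Neither passed the threshold of an adjusted p under 0.05. DESeq2, the tool of the study's own analysis, called both, with log2 fold changes of 2.19 (adjusted p = 0.00608) and −1.89 (adjusted p = 0.0257). Among the AC(NST) tumours alone, 5 high-amplified against MS 1166.1, the log2 fold change was −0.49 (SE 0.83, adjusted p = 0.762, edgeR), and among the not/low-amplified tumours alone, 2 ASQC against MS 1166.1, it was 1.89 (SE 0.53, adjusted p = 0.222, edgeR). Both of these fits assume that the lone tumour varies like the others. Gli1 was also higher in all 5 parous tumours than in all 3 virgin tumours, an order shared by 5.35% of the genes, with a log2 fold change of 1.69 (SE 0.76, adjusted p = 0.354). Within the high-amplified tumours alone that value was 0.60 (SE 0.76, adjusted p = 0.799). Gli1 lies on chromosome 10 (127329882 to 127341974, minus strand) and shares 62 exon bases with Arhgap9 and 265 with Gm47200 on the opposite strand, which cannot be told apart without strand.

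**Figure D1:**
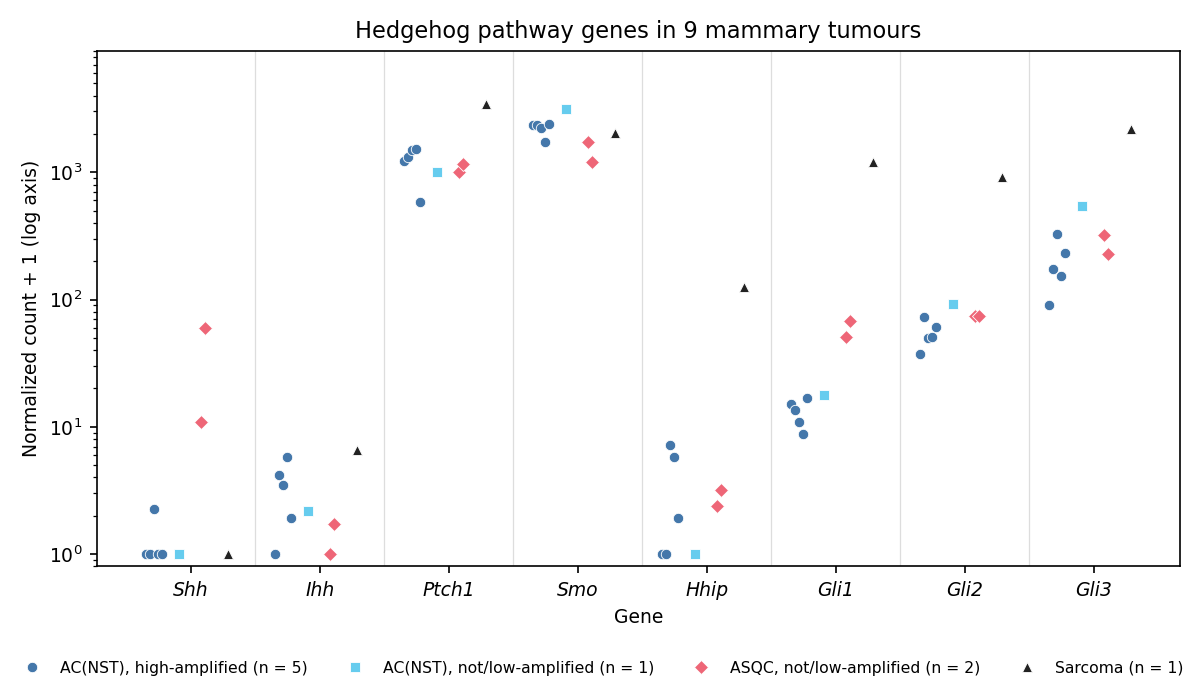
Normalised count + 1 (log axis) of the 8 genes in each of the 9 tumours, 1 point per tumour, marked by histotype and amplification. Shh is at 59.2 and 9.85 normalised counts in the ASQC tumours and at no more than 1.24 elsewhere, and Hhip, Gli1, Gli2, Gli3 and Ptch1 are highest in the sarcoma.

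Gli2 and Gli3, which carry the pathway's primary response as activator and repressor, were both lower on average in the high-amplified tumours, without a called difference. Gli2 had 50.1 normalised counts in MS 1213.1, 72.4 in MS 1163.1, 48.5 in MS 1163.2, 60.2 in MS 1218.2 and 36.1 in MS 1155.3, against 73.1 in MS 1210.1, 73.8 in MS 1349.1 and 91.6 in MS 1166.1. The groups did not overlap, but the gap between MS 1163.1 and MS 1210.1 was under 1 normalised count. The log2 fold change of high-amplified over not/low-amplified tumours was −0.55 (SE 0.41, adjusted p = 0.443, edgeR). By histotype the log2 fold change of Gli2 was 0.31 (SE 0.51, adjusted p = 0.906), and by parity 0.22 (SE 0.47, adjusted p = 0.842).

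Gli3 had 152 normalised counts in MS 1213.1, 172 in MS 1163.1, 326 in MS 1163.2, 230 in MS 1218.2 and 88.9 in MS 1155.3. The not/low-amplified tumours had 321 in MS 1210.1, 226 in MS 1349.1 and 538 in MS 1166.1. The groups overlapped, and the highest epithelial level was in the not/low-amplified AC(NST), not in an ASQC tumour. The log2 fold change by amplification was −0.88 (SE 0.44, adjusted p = 0.264, edgeR), by histotype 0.14 (SE 0.60, adjusted p = 0.968) and by parity 0.37 (SE 0.53, adjusted p = 0.756).

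Luminal epithelial markers were lower on average in the high-amplified tumours too, without a called difference. The 6 markers summed to 33165 to 50733 normalised counts in the high-amplified tumours and to 76437 to 131333 in the not/low-amplified epithelial tumours, without overlap. Their log2 fold changes of high-amplified over not/low-amplified tumours ran from −3.38 to −0.50, the same sign as those of Gli1, Gli2 and Gli3. In edgeR's fit 3 of the 6 had an unadjusted p under 0.05, against 22.8% of all genes tested, and none was called. The part of these markers in the values of the Gli genes was not tested.

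Of the 8 members, 5 (Ptch1, Smo, Gli1, Gli2 and Gli3) passed the filter, and edgeR called 0 of them in each of the 3 comparisons. Over all genes tested, edgeR called 0.921% by amplification, 0.236% by histotype and 0% by parity. At an unadjusted p under 0.05, Gli1 was the only one of these 5 by amplification, where 22.8% of all genes tested had such a p, and by histotype, where 8.72% had, and none of the 5 had one by parity, against 14.2%. DESeq2, without the filter, gave no adjusted p for Ihh and Hhip. Of the other members it called Shh and Gli1 by amplification, where it called 10.8% of the genes with an adjusted p. It called the same 2 by histotype, against 3.44% of the genes, and 0 members by parity, against 3.57%. Shh had 95 counts in the 2 ASQC tumours and 1 in the AC(NST) tumours, so its DESeq2 calls are no support for a difference. Gli1 and Gli2 were higher in all 3 not/low-amplified than in all 5 high-amplified tumours, as were 8.04% of the genes past the filter, and Gli1 was higher in both ASQC than in all 6 AC(NST) tumours, as were 5.3%.

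**Figure D2:**
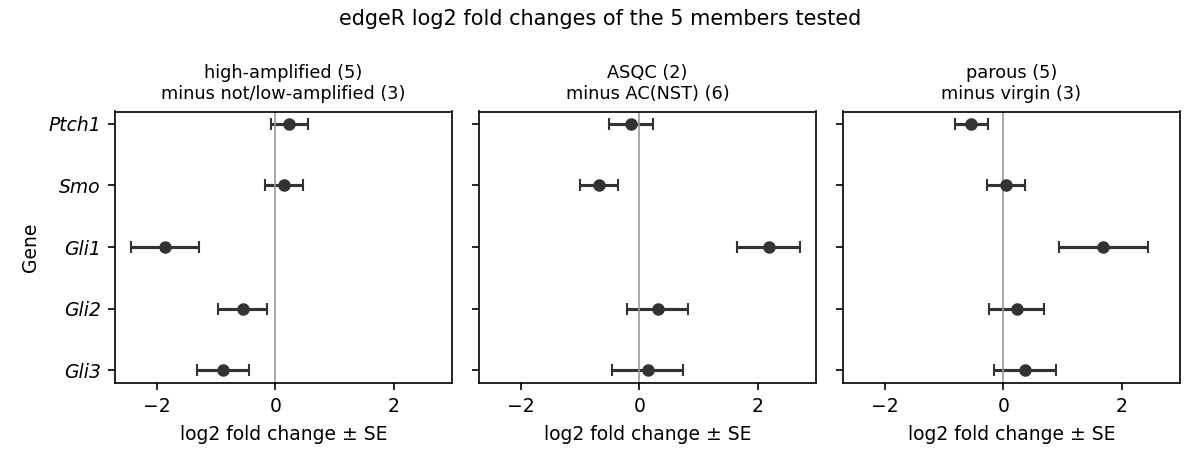
edgeR log2 fold change with its SE (horizontal bars) for the 5 genes that passed the filter, in the amplification, histotype and parity comparisons of the 8 epithelial tumours. Gli1 lies farthest from 0 in each panel, at −1.87, 2.18 and 1.69, and none of the differences passed the adjusted threshold.

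Per kb of exon, the members kept a steady order in the epithelial tumours. Mean levels were 381 ± 105 normalised counts per kb for Smo, 81.9 ± 21.4 for Ptch1, 26.8 ± 14.5 for Gli3, 9.20 ± 2.60 for Gli2 and 4.84 ± 4.34 for Gli1 (SD, n = 8). Shh (3.09 ± 7.25), Ihh (0.545 ± 0.554) and Hhip (0.214 ± 0.261) followed. Smo was above Ptch1, Ptch1 above Gli3 and Gli3 above Gli2 in all 8 tumours. Gli2 was above Gli1 in 7 of 8, and Gli1 above Shh in 7 of 8, with MS 1349.1 the exception in both cases. Below that the order was not stable, as Shh was above Ihh in 2 of 8 tumours and Ihh above Hhip in 5 of 8.

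The receptor-side list held 6 co-receptors and related genes beside the members, of which 5 passed the filter and none was called by edgeR in any comparison. The co-receptor Boc had a log2 fold change of −1.76 in ASQC over AC(NST) (SE 0.73, unadjusted p = 0.0377, adjusted p = 0.533), and no other gene of the list had an unadjusted p under 0.05 in any of the 3 comparisons.

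**Figure D3:**
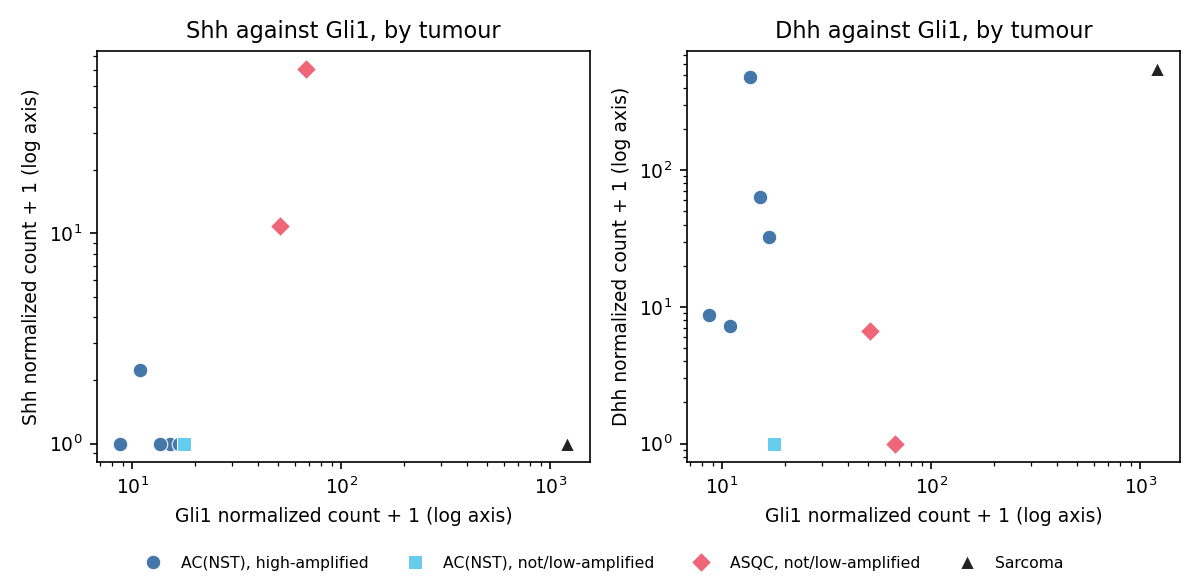
Normalised count + 1 of the ligands Shh (left) and Dhh (right) against that of Gli1 in the 9 tumours, both axes on a log scale, 1 point per tumour. The ASQC tumours are the highest for Shh and, among the epithelial tumours, for Gli1, whereas MS 1163.1 has 480 normalised counts of Dhh with 12.6 of Gli1 and the sarcoma has the most Gli1, 544 normalised counts of Dhh and no Shh.

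The other pathway lists, 49 genes in all with Dhh and the receptor-side genes included, gave 45 genes in the files and 44 past the filter. edgeR called none of them in any comparison. At an unadjusted p under 0.05 there were 11 by amplification (9 higher and 2 lower in high-amplified tumours), 8 by histotype (2 higher and 6 lower in ASQC) and 7 by parity (3 higher and 4 lower in parous tumours). Over all genes tested the shares at such a p were 22.8%, 8.72% and 14.2%. The median log2 fold change of the 44 genes was 0.25 by amplification, against 0.02 for all genes, −0.43 by histotype, against −0.08, and −0.06 by parity, against 0.10.

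Among the ligand processing genes, Scube1 and Scube2, whose secreted products help to release lipid-bound ligand, had log2 fold changes of 2.94 (SE 0.99, adjusted p = 0.131) and 2.56 (SE 0.82, adjusted p = 0.120) in high-amplified over not/low-amplified tumours. Hhat, the enzyme that attaches palmitate to Hedgehog ligands, had −1.35 in ASQC over AC(NST) (SE 0.42, adjusted p = 0.364). Scube3 had 2.51 in parous over virgin tumours (SE 0.51, adjusted p = 0.278). All 7 genes of this list passed the filter and none was called by edgeR.

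Of the 16 genes that control Smo and the Gli proteins, 2 had an unadjusted p under 0.05 by amplification. Stk36, a kinase of the Fused family, had a log2 fold change of 1.53 in high-amplified tumours (SE 0.37, adjusted p = 0.0765), and Ulk3, a kinase related to it, had 0.83 (SE 0.26, adjusted p = 0.117). Stk36 had −1.32 by histotype (adjusted p = 0.564) and −1.15 by parity (adjusted p = 0.329, edgeR). Of the 9 cilium genes, Dync2h1, a motor subunit of retrograde transport, had 1.22 by amplification (SE 0.48, adjusted p = 0.170), −1.38 by histotype (adjusted p = 0.534) and −1.10 by parity (adjusted p = 0.337). Ift122 and Ift172, which belong to the transport particles of the cilium, had 0.90 (adjusted p = 0.114) and 0.63 (adjusted p = 0.179) by amplification, and Ift172 had −0.72 by histotype (adjusted p = 0.560). In parous over virgin tumours Rpgrip1l had −1.12 (adjusted p = 0.312) and Ift80 had −0.77 (adjusted p = 0.329, edgeR).

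Of the 11 genes listed as known to respond to the pathway beside the members, 7 were in the files and passed the filter, and the signs of their fold changes were mixed. Bcl2, an inhibitor of apoptosis, had a log2 fold change of 2.04 in high-amplified over not/low-amplified tumours (SE 0.43, adjusted p = 0.0579, edgeR), opposite in sign to Gli1, and −1.90 by histotype (adjusted p = 0.471). The transcription factor Foxf2 had −4.80 by amplification (SE 1.34, adjusted p = 0.0921) and 4.82 by histotype (SE 1.25, adjusted p = 0.245). This rested on a single tumour, since Foxf2 had 332 normalised counts in MS 1210.1, 9.50 in the other ASQC tumour MS 1349.1 and at most 15.5 elsewhere. By parity Foxf2 had 4.97 (adjusted p = 0.330, edgeR). Prdm1, a transcriptional repressor, had −1.28 by amplification (adjusted p = 0.160), 1.70 by histotype (SE 0.40, adjusted p = 0.205) and 1.33 by parity (adjusted p = 0.332).

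Hair placode and hair matrix genes, a list of 11 of which 6 passed the filter, were examined because Shh marks that appendage. Edar, the receptor for ectodysplasin, had a log2 fold change of 3.40 in ASQC over AC(NST) (SE 1.08, adjusted p = 0.374, edgeR). Krt17, a keratin of the follicle and of activated epidermis, had −3.19 by amplification (SE 0.88, adjusted p = 0.0898) and 3.96 by parity (SE 1.04, adjusted p = 0.280), but its highest level, 8476 normalised counts, was in MS 1166.1, which had no Shh. Wnt10b had 2.32 by parity (adjusted p = 0.316, edgeR). None of the 6 was called by edgeR in any comparison.

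The genes whose levels across the 8 epithelial tumours were most like those of Gli1, among 12162 genes with a mean of at least 50 normalised counts, were Cyb5r4, Atp6ap2, Adgrf4, Zfp703 and Chp1 (Pearson r = 0.962, 0.952, 0.951, 0.948 and 0.945 on log2 values). Those most like Shh were Saa3, Aldh1a1, Tchh, Peg10 and Slc22a23 (r = 0.969, 0.963, 0.955, 0.954 and 0.952). The points are 8 libraries, and in each of these 10 genes both ASQC tumours lay above all 6 AC(NST) tumours. Gli1 and Shh have that order themselves, so it largely follows from how the genes were picked and is no support. Of the genes past the filter, 5.3% had it. Tchh, which encodes trichohyalin of the hair follicle's inner root sheath, had 3292 and 15830 normalised counts in the ASQC tumours and 1.05 to 57.2 in the AC(NST) tumours. Adgrf4 had 164 and 219 in the ASQC tumours and 2.49 to 15.5 in the AC(NST) tumours. Neither was high in the sarcoma, with Tchh at 16.7 and Adgrf4 at 8.37, whereas Gli1 was.

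Hhip, Gli1, Gli2, Gli3 and Ptch1 were higher in the sarcoma than in any epithelial tumour, while its Smo lay inside the epithelial range and its Shh was undetected. As 1 library it allows no test. Its normalised count was 20.0 times the highest epithelial value for Hhip (124 against 6.21), 18.1 times for Gli1 (1207 against 66.5) and 10.1 times for Gli2 (924 against 91.6). Gli3 was 4.07 times (2189 against 538) and Ptch1 2.26 times (3419 against 1511) the highest epithelial value. Ihh, from 4 counts, was at 1.16 times (0.981 times by CPM, the share of all counts) and Smo at 0.647 times.

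Of the 6 members that reached 10 counts in at least 1 epithelial tumour (Shh, Ptch1, Smo, Gli1, Gli2 and Gli3), 4 were over 2-fold above the highest epithelial tumour, against 7.88% of the 15245 genes that did so. By CPM it was 3 of the 6, against 7.04%. Hhip reached 10 counts in the sarcoma alone and is left out of that count and of the ranks that follow. Larger ratios were found for 243 genes in the case of Gli1, 381 for Gli2, 802 for Gli3 and 1309 for Ptch1. These ranks are among 15528 genes with a ratio and 10 counts in any tumour, the sarcoma included. By CPM, Ptch1 was 1.92 times the highest epithelial value and so under 2-fold. Hhip, Gli1, Gli2 and Gli3 stayed between 4.06 and 17.4 times by CPM. Per kb of exon the order of the members in the sarcoma was Smo (364), Gli1 (242), Ptch1 (241), Gli3 (228), Gli2 (134), Hhip (13.7), Ihh (1.83) and Shh (0), so that Gli1 stood beside Ptch1 there and far below it in the epithelial tumours.

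The other pathway genes lay in different directions in the sarcoma. Over all genes with 10 counts in an epithelial tumour, 7.88% were over 2-fold above the highest epithelial tumour, or 7.04% by CPM. The share of genes merely above every epithelial tumour was not counted, but 2838 of 15528 genes had a ratio larger than 1.16. Of the 7 response genes in the files, 3 were over 2-fold above every epithelial tumour, namely the cyclin Ccnd2 (7.35 times), the growth factor Bmp4 (6.57 times) and the transcription factor Mycn (2.08 times). Bcl2 (0.489 times) and Foxf2 (0.0210 times) lay within the epithelial range, as did Ccnd1 (0.151 times). Prdm1, at 46.0 normalised counts, was below every epithelial tumour (163 to 1070). The cilium list had 7 of 9 genes above every epithelial tumour, 4 of them over 2-fold (Ift80, Ift122, Kif3a and Tulp3, 2.06 to 2.49 times). By CPM 6 of the 9 were above and only Ift80, at 2.14 times, was over 2-fold. Of the 16 genes controlling Smo and Gli, 6 were above every epithelial tumour and 3 over 2-fold, Evc (3.79 times), a ciliary partner of Smo, Kif7 (3.24 times), a kinesin that acts on Gli proteins, and Btrc (2.04 times, and 1.75 by CPM), part of a ubiquitin ligase. On the receptor side 2 of 6 genes were over 2-fold above, Gpr161 (2.42 times) and Gpc3 (2.34 times). No gene of the ligand list was over 2-fold above, and Dhh, at 544, was 1.13 times its value in MS 1163.1, or 0.976 times by CPM, so that which of these tumours had more depended on the scaling.

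**Figure D4:**
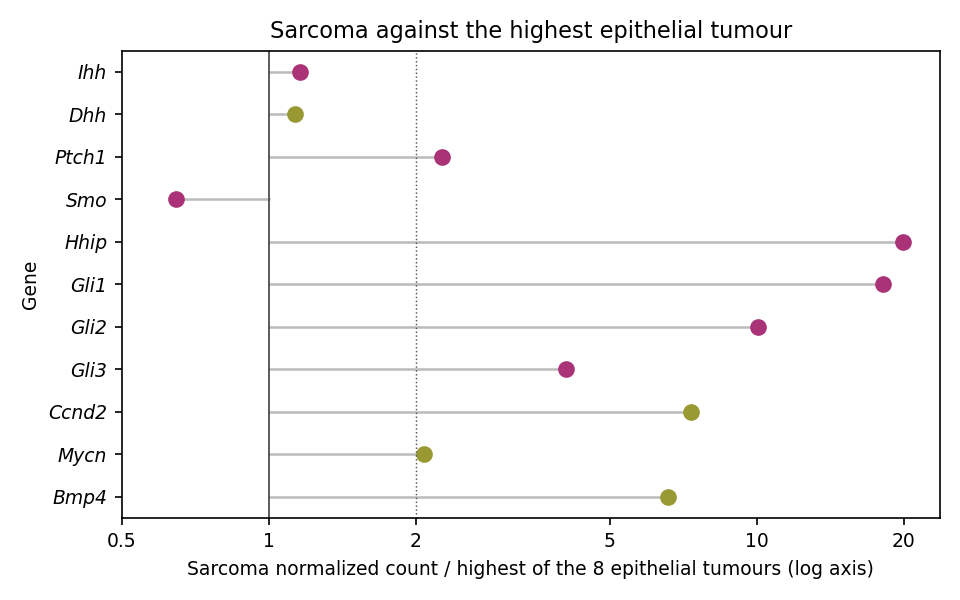
Ratio of the sarcoma's normalised count to that of the highest of the 8 epithelial tumours (log axis) for 7 members (purple) and 4 other pathway genes (olive), with lines at ratios of 1 (solid) and 2 (dotted). Hhip and Gli1 lie at 20.0 and 18.1, and Smo, at 0.647, is to the left of 1. Shh, with no count in the sarcoma, is not drawn. The olive genes are Dhh and the response genes Ccnd2, Mycn and Bmp4. The other response genes analysed, Bcl2 (0.489), Ccnd1 (0.151), Prdm1 (0.0430) and Foxf2 (0.0210), lie below 1 and are not drawn.

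Cell type markers differed in the same library. All 6 luminal epithelial markers were below every epithelial tumour, with a summed level of 467 against 33165 to 131333. The 7 fibroblast markers summed to 609768 against 29692 to 380384, with 5 of the 7 above every epithelial tumour. All 3 skeletal muscle markers were above, summing to 11318 against 3.52 to 2267. MS 1218.2 was the epithelial tumour with the most fibroblast marker RNA. It had Gli1 at 15.7, Gli2 at 60.2, Gli3 at 230, Hhip at 0.926 and the lowest Ptch1 of all tumours. Among the high-amplified tumours its Gli1 was the highest, and its Gli2 and Gli3 were each next to the highest. The part of these cell types in the sarcoma's Hedgehog pathway levels was not tested.

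Promoter sequences were held for 6 of the 8 members, Ihh, Ptch1, Smo, Hhip, Gli2 and Gli3 (RefSeq, GRCm38.p6). Those of Ptch1 and Hhip are shown because both genes are classical responders and both were highest in the sarcoma. Each run is the 250 bases before the RefSeq start, written 5′ to 3′ on the gene's minus strand. That of Ptch1 is chr13:63565736-63565985, within an intron of the transcripts that start farther upstream. Its RefSeq start lies 7863 bases inside the gene's outermost annotated start, and the run has 78.4% G and C. That of Hhip is chr8:80058009-80058258, upstream of a RefSeq start that lies 2 bases outside the annotated gene, and the run has 76.0% G and C.
Ptch1: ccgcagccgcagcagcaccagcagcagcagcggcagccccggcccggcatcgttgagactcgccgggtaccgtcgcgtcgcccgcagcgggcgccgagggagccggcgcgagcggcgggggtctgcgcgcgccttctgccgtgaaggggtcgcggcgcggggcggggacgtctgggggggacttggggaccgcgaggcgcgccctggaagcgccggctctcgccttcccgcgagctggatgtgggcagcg
Hhip: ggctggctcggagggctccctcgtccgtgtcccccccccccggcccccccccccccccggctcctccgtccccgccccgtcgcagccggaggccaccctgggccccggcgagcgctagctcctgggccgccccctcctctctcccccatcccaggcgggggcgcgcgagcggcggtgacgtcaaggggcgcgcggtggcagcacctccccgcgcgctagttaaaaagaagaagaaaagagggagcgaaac
The 9-base sequence bound by Gli proteins, GACCACCCA, and its 7-base core, CCACCCA, which lies within it, were searched on both strands of the 300 bases from 250 before to 50 after the start. Neither matched in any of the 6 promoters, which is why no letters are in capitals. Over 32851 promoters of the same length, 0.253% held the 9-base sequence and 9.30% the core.

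The remaining positions (GRCm38) are as follows. Ihh lies on chromosome 1 from 74945315 to 74951672 and Gli2 on the same chromosome from 118834132 to 119053619, both on the minus strand. Ptch1 lies on chromosome 13 from 63508328 to 63573598 on the minus strand and Gli3 on the same chromosome from 15463235 to 15730026 on the plus strand. Smo lies on chromosome 6 from 29735503 to 29761365 on the plus strand and Hhip on chromosome 8 from 79965851 to 80058006 on the minus strand. Hhip shares 175 exon bases with Gm27820 and Gli3 188 with Gm6556, both on the opposite strand, and Ptch1, Smo, Ihh and Gli2 share none with another annotated gene.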

How the data were processed

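RNA from 9 snap-frozen mammary tumours was sequenced in pairs from rRNA-depleted, strand-specific libraries. According to the study's methods, the authors aligned reads to mouse build 38 with STAR under unstranded settings (at most 3 mismatches, unique positions only) and counted them per gene with HTSeq-count. The deposited counts are whole reads per gene, for all 9 tumours. The deposited signal values of the 8 epithelial tumours are those counts divided by 1 size factor per tumour, equal to the median-of-ratios factor. The sarcoma was scaled here by its median ratio to the geometric means of the 8 (0.717). No row lacked a gene.

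Groups came from the labels. Counts were tested in R 4.3.3 with edgeR 4.0.16 (quasi-likelihood test, TMM) on 14007 genes that reached 10 counts in 3 or more epithelial tumours, with calls at a Benjamini-Hochberg adjusted p under 0.05 and a fold change over 2. DESeq2 1.42.0, other filters, another scaling, left-out tumours, subsets and covariates were alternatives. P-values measure the spread between tumours, which came from 1 library each. Shh, Ihh and Hhip, below the filter, had exact two-sided permutation tests. Exact intervals (95%) and the 3-count limit cover counting error only. The sarcoma was set beside the highest epithelial tumour, with the 15245 genes that had 10 counts in an epithelial tumour as background. Exon lengths came from GENCODE M21.

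The members, and all gene and marker lists, were chosen with earlier results of these data known. All 8 members are named. Genes of other lists are named when called or, up to 3 a list and comparison, by largest fold change at an unadjusted p under 0.05, and the 5 genes most correlated with Gli1 and with Shh are named. Ccnd2, Bmp4, Mycn, Evc, Kif7, Btrc, Kif3a, Tulp3, Gpr161, Gpc3 and Ccnd1, named for the sarcoma, were chosen after their values were seen. So were Krt14, Acta2 and Trp63, named among the basal markers. All genes of the hair list are named by the epithelial tumour in which each was highest. Foxf1, Foxf1a, Foxl1, Foxc2, Acta1 and Emr1 were not analysed here, and 1 pathway gene and 1 marker list are not reported here and were left out of the counts. The edgeR script was tested on simulated counts of the 14007 genes: of 100 genes changed by a log2 fold of 2 it recovered 43 by amplification, 26 by histotype and 27 by parity, and of 100 changed by 4 it recovered 100, 97 and 98.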

Additional observations from a re-analysis of the deposited data

Results flagged for a closer look

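In 24 groups of 4 to 10 tumours (each member in each group), 4 had a tumour far from the others by Dixon's gap ratio at the 95% level, where chance alone flags about 1 in 20. Smo was lowest in MS 1213.1 among the high-amplified tumours, at 1719 normalised counts against 2205 to 2393 in the other 4 (gap ratio 0.721). Shh was highest in MS 1349.1 among the parous epithelial tumours, at 59.2 against 0 to 9.85 (gap ratio 0.834). Shh in MS 1163.2, at 1.24 normalised counts from 1 count, stood above values of 0 both among the high-amplified and among the AC(NST) tumours (gap ratio 1 in each), which at this depth is not a detectable difference.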

How the results depend on the processing

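The number of genes called moved more than the members did. By amplification it was 129 in edgeR's test, 1601 with DESeq2, 229 without the filter, 31 with MS 1163.1 and MS 1163.2 summed, 0 with parity as a covariate or in parous tumours alone, and 40 in AC(NST) tumours alone. By histotype it was 33, 522 with DESeq2, 171 without the filter, 149 with 10 counts in 2 tumours, 18 with those tumours summed and 0 in not/low-amplified tumours alone. By parity it was 0 (1984 genes at an unadjusted p under 0.05) and 516 with DESeq2. Leaving out each tumour in turn gave 1 to 1255 genes by amplification (1255 without MS 1218.2, 1 without MS 1210.1), 4 to 84 by histotype (4 without MS 1349.1, 84 without MS 1166.1) and 0 to 147 by parity (147 without MS 1155.3). Without MS 1218.2 and MS 1163.2 together, a setting chosen after seeing the data, 585 were called by amplification and 1 by histotype.

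DESeq2 called 2 members by amplification and 2 by histotype (Shh and Gli1 in each). edgeR called 1 by histotype without the filter and 1 with 10 counts in 2 tumours, Shh in both cases. The calls of Shh in all these settings rest on the 2 ASQC tumours and are no support for a difference. Leaving out any tumour, edgeR called none of Ptch1, Smo, Gli1, Gli2 and Gli3, and Shh, Ihh and Hhip were not in those tests. Gli1 stayed between −2.26 and −1.45 by amplification (adjusted p 0.0628 to 0.265) and between 1.96 and 2.33 by histotype (adjusted p 0.101 to 0.998).

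Signs reversed only in members without a call. By amplification Ptch1 was −0.20 with parity as a covariate and −0.16 in parous tumours alone, and Smo was −0.55 in AC(NST) tumours alone and, leaving out each tumour, −0.12 (without MS 1349.1) to 0.59. By histotype in not/low-amplified tumours alone Ptch1 was 0.19, Gli2 −0.23 and Gli3 −0.89, and Gli3, leaving out each tumour, was −0.19 to 0.50 (below 0 without MS 1210.1 or MS 1155.3). By parity Gli2 was −0.21 and −0.23 and Gli3 −0.40 and −0.42, in high-amplified tumours alone and with amplification as a covariate, and Smo, leaving out each tumour, was −0.12 to 0.19 (below 0 without MS 1213.1, MS 1218.2 or MS 1166.1). The cause of these changes was not tested. The sarcoma's Ptch1 ratio was 1.92 by CPM, a scaling added after seeing the data. No paired analysis was possible because the labels give no replicate numbers that pair tumours across groups. Depth limits Shh, Ihh and Hhip, which had at most 5 counts in most epithelial tumours.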
